A study of Mus musculus with 4 samples.

Results

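The transcripts described here are those of 44 genes that copy DNA, from the subunits that mark and open replication origins to the enzymes that join the finished strands and restore chromatin. They were chosen by name from the deposited expression table, all 44 names were found there among its 37305 rows, each on a single row, and all 44 had a mean of at least 1 FPKM (fragments scaled to transcript length and to all mapped fragments of the library), the level required for testing. RNA was sequenced from natural killer (NK) cells, lymphocytes that kill infected and tumour cells. The cells were primary and splenic, from C57BL/6 mice of postnatal day 56. All cells were first kept in recombinant murine IL-15, a cytokine on which NK cells depend, at 50 ng/ml for 24 hours. They then received mock treatment (control, 2 libraries) or DKK2, a secreted protein that blocks Wnt signalling at its co-receptors, at 200 ng/ml (DKK2, 2 libraries) for another 24 hours. The labels number the libraries of a group as replicates without stating whether these were separate animals or cultures. The p-values therefore reflect the spread among these libraries alone, and that spread may be technical. The design has 1 comparison, DKK2 against control.

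DNA replication starts at origins bound by the origin recognition complex (ORC). Together with Cdc6 and Cdt1, ORC loads the ring-shaped MCM helicase in G1 phase, and geminin (Gmnn) blocks Cdt1 once S phase has begun. Cdc45 and the GINS complex then switch the helicase on, and polymerases alpha, delta and epsilon copy the strands with the clamp Pcna, which the RFC complex loads. Many of these genes are transcribed under the control of E2F factors as cells pass from G1 into S phase, and IL-15 is known to drive NK cells to divide.

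The promoters of 4 of these genes are shown because E2F-type motifs were found in a larger share of this group's promoters than of other promoters. They belong to the helicase subunit gene at the highest level (Mcm6) and to 3 genes that were lower in both DKK2 libraries than in both controls (Orc1, Mcm5 and Cdc6), although Cdc6 overlapped once libraries were scaled to the same median or corrected for GC and length. Each line gives the 180 bases before a RefSeq gene start in build GRCm38.p6, 5′ to 3′ along the gene, with E2F-type motifs in capitals. The windows lie at chr1:128359706-128359885 on the minus strand for Mcm6, and on the plus strand at chr4:108579274-108579453 for Orc1, chr8:75109329-75109508 for Mcm5 and chr11:98907971-98908150 for Cdc6.
Mcm6: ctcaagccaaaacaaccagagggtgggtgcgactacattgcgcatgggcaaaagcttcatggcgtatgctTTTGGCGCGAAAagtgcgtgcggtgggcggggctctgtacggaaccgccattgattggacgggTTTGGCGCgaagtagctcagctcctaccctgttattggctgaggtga
Orc1: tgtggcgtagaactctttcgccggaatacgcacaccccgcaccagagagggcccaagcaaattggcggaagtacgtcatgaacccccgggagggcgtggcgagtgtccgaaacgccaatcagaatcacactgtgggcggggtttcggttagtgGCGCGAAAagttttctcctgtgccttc
Mcm5: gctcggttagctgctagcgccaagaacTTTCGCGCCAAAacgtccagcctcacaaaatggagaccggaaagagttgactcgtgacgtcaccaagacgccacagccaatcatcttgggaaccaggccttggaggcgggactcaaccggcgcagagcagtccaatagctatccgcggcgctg
Cdc6: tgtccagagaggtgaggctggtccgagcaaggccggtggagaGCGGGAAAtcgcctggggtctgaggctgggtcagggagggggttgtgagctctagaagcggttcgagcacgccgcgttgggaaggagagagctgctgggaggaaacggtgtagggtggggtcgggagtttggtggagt
The motifs searched were TTTCCCGC, TTTCGCGC, TTTGCCGC and TTTGGCGC on both strands, and matches on opposite strands can overlap, as they do in Mcm5 and in the upstream pair of Mcm6. Mcm6 had 3 matches, starting 110, 106 and 47 bases before the gene start, and Mcm5 had 2, at 153 and 149 bases. Orc1 had 1 match at 27 bases and Cdc6 had 1 at 138 bases. RefSeq promoters of 300 bases (250 before the start and 50 after it) were matched by symbol for 37 of the 44 genes. In 16 of these 37 genes (43.2%) a promoter held an E2F-type motif, against 383 of 7536 tested genes with a promoter (5.08%) and 2.26% of all 32851 promoters. Another cell cycle motif, TTTGAA (the core of the cell cycle homology region, found in promoters of genes used in mitosis), was in promoters of 6 of the 37 genes (16.2%) and of 14.6% of the tested genes. In a list of mitosis genes the shares were the other way round, 1 of 33 genes with the E2F-type motif and 23 of 33 (69.7%) with TTTGAA. The motif CCAAT was in promoters of 24 of the 37 genes (64.9%), of 24 of the 33 mitosis genes (72.7%) and of 43.6% of the tested genes. These matches describe the letters and not bound factors. Among genes below both controls, Mcm2, Cdc45, Fen1, Rrm2, Rfc1 and Rfc5 had promoters without an E2F-type match. Mcm3 and Mcm7 had matches but are not shown. Those of Mcm3 lie after the start. Mcm7 has 2 gene starts, and its matches lie in the window of the upstream start. Orc3, Rfc3, Lig1, Pold1, Gins3, Cdt1, Dnmt1, Pole2, Uhrf1 and Pola1 had a match, and their groups overlapped. Whether the motif goes with the change was not tested.

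Replication transcripts were abundant in every library. Over the 44 genes the median was 74.9 and 62.1 FPKM in control replicates 1 and 2 and 56.1 and 57.0 FPKM in DKK2 replicates 1 and 2, where the median of all 12275 tested genes was 12.4 to 14.1 FPKM. The median replication gene stood at percentile 84.9 of the tested genes by mean level, and the range ran from percentile 46.7 for the GINS subunit Gins3 to 96.4 for Mcm6. The proliferation marker Mki67 measured 77.7 and 106.8 FPKM in the controls and 81.9 and 98.9 FPKM with DKK2. FPKM is scaled to transcript length, but the libraries also shifted with transcript GC, as described below. Levels, orders and ratios of genes with unlike GC are therefore rough comparisons. Pcna has a further limit, because its processed copy Pcna-ps2 has a row of its own with higher values, given below.

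**Figure D1:**
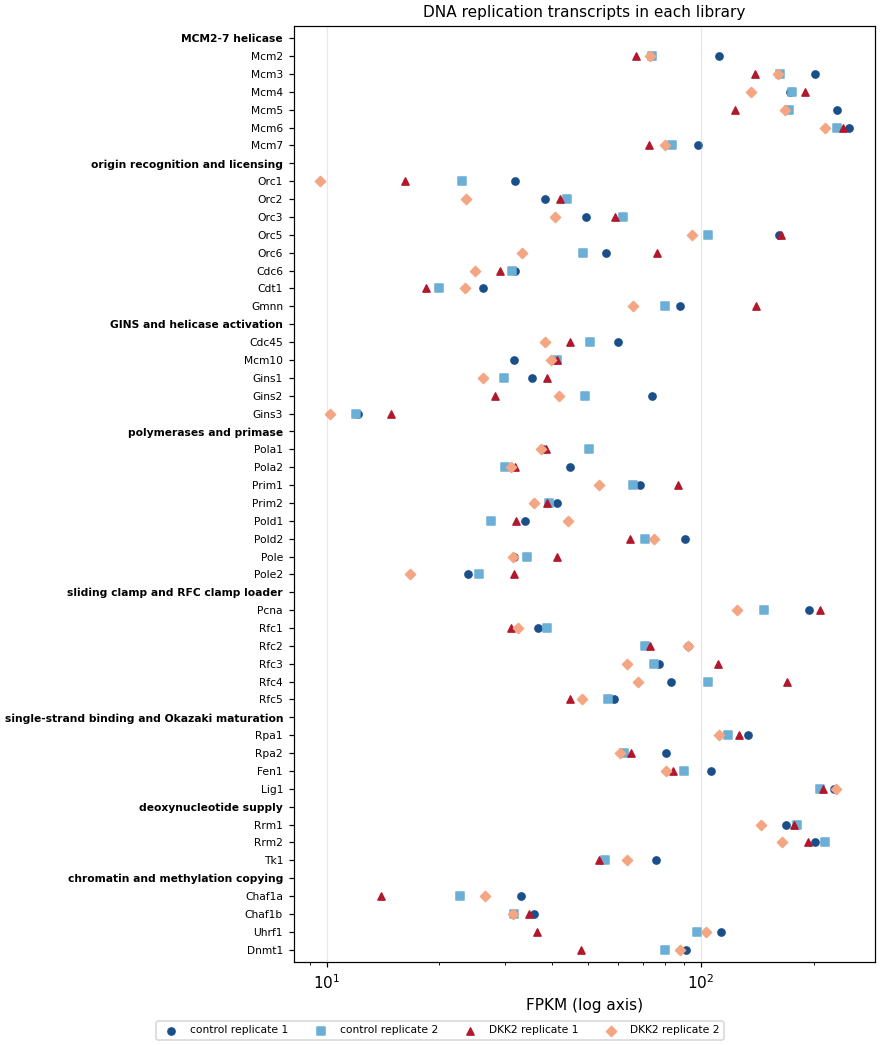
FPKM (log axis) of each replication gene in each of the 4 libraries, grouped by role. Mcm6 and Lig1 lie above 200 FPKM in all 4 libraries, Orc1 lies lower in both DKK2 libraries than in both controls, and DKK2 replicate 1 (dark triangles) stands apart for Uhrf1, Dnmt1, Rfc4 and Gmnn.

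Relative depth was estimated from the spacing of low FPKM values, since the table holds no read totals. By that estimate the other 3 libraries had 0.351 to 0.401 of the depth of control replicate 1. At that depth the thinnest gene of the group, Gins3, rested on an estimated 563 to 1670 fragments per library, a counting error of 2.45% to 4.21%, which is smaller than the typical gap between replicates described below. Of the NK markers checked against the labelled cell type, 12 of 12 were above 0 in every library, with a summed level of 18030 and 15140 FPKM in the controls and 12400 and 11780 FPKM with DKK2. Gzmb, which encodes granzyme B, made up most of that sum, at 11540 and 9908 against 6895 and 6115 FPKM. By contrast 8 of the 12 NK markers were higher in the mean with DKK2, and their median log2 fold change was 0.08. Control replicate 1 had the lowest levels of T, B, myeloid and granulocyte markers, and in it 3 of 15 monocyte and macrophage markers, 6 of 15 neutrophil and basophil markers and 2 of 10 T cell markers were listed at 0. The summed level was 91.2 and 191.8 FPKM in the controls and 283.6 and 249.9 FPKM with DKK2 for T cell markers. It was 6.64 and 209.2 against 390.0 and 435.0 FPKM for B and plasma cell markers, 419 and 937 against 1625 and 1292 FPKM for monocyte and macrophage markers, and 5.17 and 218.1 against 3690.0 and 309.6 FPKM for neutrophil and basophil markers. Most of the 3690.0 FPKM in DKK2 replicate 1 came from S100a8 and S100a9, at 1738 and 1582 FPKM. Dendritic, erythroid and platelet, and stromal markers summed to at most 157.6 FPKM in any library. The part of these cells in the values below was not tested, and in such bulk samples fewer dividing cells and less RNA per cell cannot be told apart.

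For no replication gene did the difference between DKK2 and control pass the test against the spread of the replicates. With p-values from limma adjusted by Benjamini-Hochberg over 12275 genes, 0 of 44 passed at 0.05 (adjusted p = 1.0 for each), where 4 of all tested genes did (0.0326%). At an unadjusted p under 0.05 there was 1 of 44, Orc1, which was lower, against 1.84% of the tested genes in either direction and 0.766% in the lower direction. In 14 alternative settings of the analysis 0 of 44 passed as well, with a smallest adjusted p of 0.596 (limma, without DKK2 replicate 2). In the mean, 34 of the 44 were lower with DKK2 and 10 higher, where 56.4% of the tested genes were lower, and when all libraries were scaled to the same median the split was 29 to 15 and 48.7% of the tested genes were lower. The median gene had a log2 fold change of -0.14 (fold 0.906), beside -0.05 for all tested genes. With libraries scaled to the same median these values were -0.08 and 0.01. Both DKK2 libraries lay below both controls in 13 of the 44 genes (14.8% of the tested genes did so) and above both in 0 (11.8%). Scaling to the same median gave 9 below (11.5%) and 2 above (14.2%), and Cdc6, Prim2, Fen1 and Rrm2 then overlapped. Quantile normalization gave 12 below (14% of the tested genes) and 1 above (11.9%). Mcm3 and Prim2 then overlapped, while Mcm6 joined the genes below and Pold1 was the gene above. For a single gene, the smallest p that an exact permutation test (two-sided) can give with 2 libraries a group is 0.333.

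Single libraries moved these summaries. Without control replicate 1 the median log2 fold change of the 44 genes was -0.05 and 25 were lower (56.8%). The median of all tested genes was then 0.005 and 49.0% were lower. Without DKK2 replicate 2 the 44 genes were at -0.08 with 24 lower (54.5%), close to all tested genes (-0.07, 55.4% lower). Without control replicate 2 they were at -0.19 with 36 lower (81.8%), beside -0.10 and 59.6% for all tested genes. Without DKK2 replicate 1 they were at -0.24 with 38 lower (86.4%), beside -0.006 and 50.7%. The 4 calls among all tested genes became 0 when any library was left out. Of the 44 genes, 22 to 35 had groups that did not overlap when a library was left out, a count that a lone library in a group makes larger for all genes too. The share of tested genes below both controls was then 23.8% without control replicate 1, 37.5% without control replicate 2, 34.2% without DKK2 replicate 1 and 41.8% without DKK2 replicate 2. The genes below were 18, 25, 33 and 19 of the 44 in the same order. The genes above both controls were 4, 1, 2 and 12 of the 44, beside 25.5%, 22.7%, 32.7% and 32.6% of the tested genes. The 12 above without DKK2 replicate 2 stand against 0 with all libraries.

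**Figure D2:**
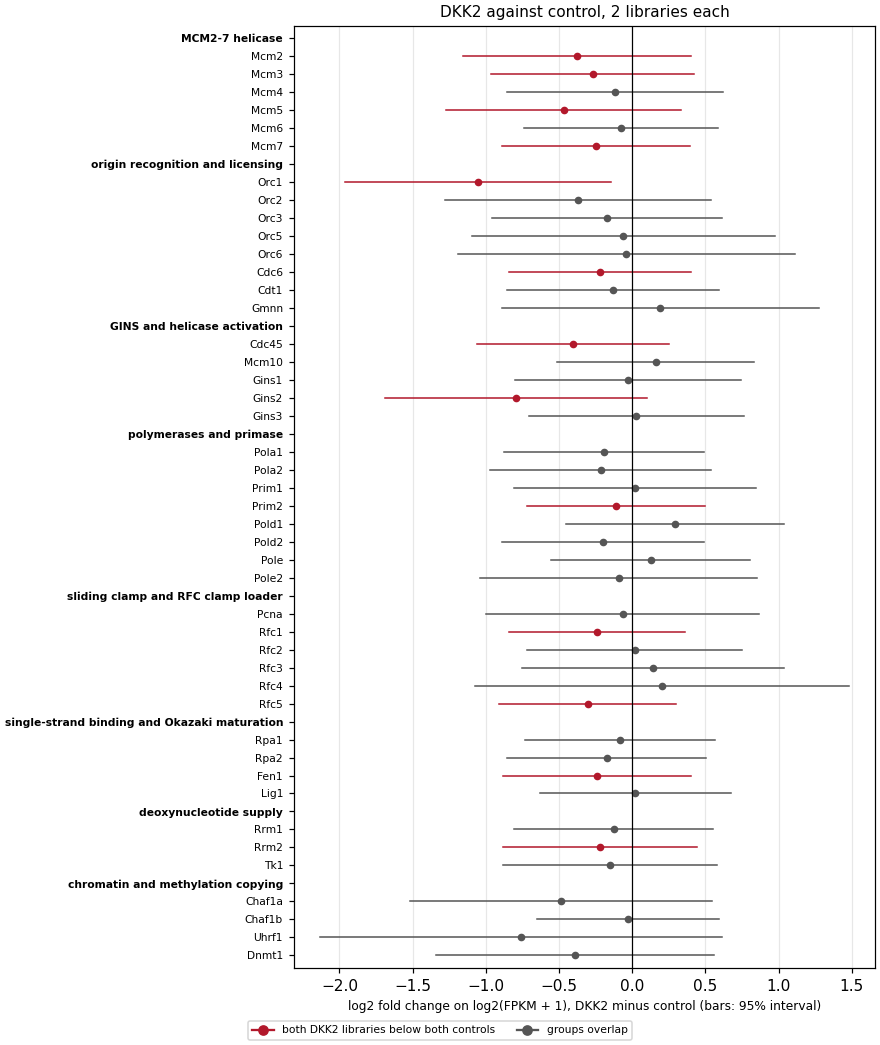
Log2 fold change of each replication gene, DKK2 minus control on log2(FPKM + 1), with its 95% interval from limma (2 libraries a group). Colour marks the 13 genes whose DKK2 libraries both lie below both controls, and every interval except that of Orc1 includes 0.

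In what follows, pairs of values set control replicates 1 and 2 against DKK2 replicates 1 and 2, and bracketed values are log2 fold changes with their standard errors.

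The MCM helicase genes were among the highest of the group. All were lower in the mean with DKK2 (56.4% of all tested genes were), with 4 of 6 below both controls (14.8% of all tested genes). Mcm6, the highest, measured 248 and 230.2 FPKM in the controls and 239.7 and 214 FPKM with DKK2 (log2 fold change -0.08 ± 0.26 SE). Its groups overlapped in the deposited values but not after quantile normalization. Mcm5 had the largest mean difference of the 6, at 231 and 172 FPKM in the controls and 124 and 168 FPKM with DKK2 (-0.47 ± 0.31, 95% interval -1.27 to 0.34). Its control replicate 2 was only just above DKK2 replicate 2. The same held for Mcm2, at 111 and 74.1 against 66.9 and 72.8 FPKM (-0.38 ± 0.30), Mcm3, at 201 and 163 against 139.7 and 161 FPKM (-0.27 ± 0.27), and Mcm7, at 98.2 and 83.6 against 72.6 and 80.0 FPKM (-0.25 ± 0.25). In all 4 of these genes control replicate 1 was the highest library and control replicate 2 lay close to DKK2 replicate 2. Without control replicate 1 the log2 fold change was -0.26 for Mcm5, -0.085 for Mcm2, -0.12 for Mcm3 and -0.13 for Mcm7. Mcm4 measured 173 and 175 against 189 and 136 FPKM, with DKK2 replicate 1 the highest. The subunits are built into the ring in equal numbers, yet their transcripts kept unequal levels. Mcm6 was first in all 4 libraries, and Mcm2 and Mcm7 held the last places in all 4. Transcript GC was 47.3% for Mcm6, 55.5% for Mcm2 and 53.4% for Mcm7, and its part in this order was not tested. The median difference of the 6 genes was -0.27 (log2) for control replicate 2 minus control replicate 1. Against control replicate 2 it was -0.17 for DKK2 replicate 1 and -0.05 for DKK2 replicate 2.

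Among the origin recognition and licensing genes, Orc1 showed the largest mean difference of all 44. Orc1, the ORC subunit whose amount is regulated through the cell cycle, measured 31.8 and 22.9 FPKM in the controls and 16.1 and 9.60 FPKM with DKK2, a fold of 0.482 (-1.05 ± 0.35, 95% interval -1.96 to -0.14, limma unadjusted p = 0.031). The 2 groups did not overlap, and Orc1 kept its direction in every alternative setting, between -1.40 and -0.71. In the deposited values the other ORC subunits did not share this pattern. After the GC and length correction described below, Orc2 (-0.45) and Orc3 (-0.32) also lay below both controls, while Orc5 and Orc6 overlapped. In that fit 20.9% of the genes lay below both controls. Orc5, the highest, measured 161 and 104 against 164 and 94.4 FPKM (-0.06 ± 0.40), so that each group held 1 high and 1 low library. Orc2 measured 38.3 and 43.9 against 41.9 and 23.5 FPKM (-0.37 ± 0.35), Orc3 measured 49.3 and 61.9 against 58.9 and 40.7 FPKM, and Orc6 measured 55.5 and 48.4 against 76.2 and 33.2 FPKM. All 3 were lowest in DKK2 replicate 2, while DKK2 replicate 1 lay between the controls or above them. The loader gene Cdc6 measured 31.9 and 31.2 FPKM in the controls and 29.0 and 24.9 FPKM with DKK2 (-0.22 ± 0.24), without overlap. Its partner Cdt1 measured 26.1 and 19.9 against 18.4 and 23.4 FPKM, overlapping. Geminin, which inhibits Cdt1, measured 87.9 and 80.2 against 139.9 and 65.9 FPKM (0.19 ± 0.42). The ratio of Gmnn to Cdt1 was 3.36 and 4.02 in the controls and 7.60 and 2.81 with DKK2. The DKK2 libraries thus held both the highest and the lowest ratio. Transcript GC differs between these genes, at 49.8% for Gmnn and 58.8% for Cdt1.

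In the set that activates the helicase, Gins2 and Cdc45 were lower in both DKK2 libraries. Gins2, a GINS subunit, measured 74.0 and 48.9 FPKM in the controls and 28.1 and 41.7 FPKM with DKK2, a fold of 0.576 (-0.80 ± 0.35, 95% interval -1.69 to 0.10). With a library left out it ranged from -1.09 (without control replicate 2) to -0.50 (without control replicate 1). Cdc45, which binds the helicase together with GINS, measured 60.0 and 50.5 against 44.5 and 38.3 FPKM (-0.41 ± 0.25). The other GINS subunits in the set went their own way, with Gins1 at 35.3 and 29.8 against 38.7 and 26.1 FPKM and Gins3 at 12.1 and 12.0 against 14.8 and 10.2 FPKM, both highest in DKK2 replicate 1 and lowest in DKK2 replicate 2. The ratio of Gins1 to Gins2 was 0.478 and 0.609 in the controls and 1.38 and 0.626 with DKK2, for transcripts of 46.9% and 53.4% GC. Mcm10, a factor that helps the helicase to start, measured 31.6 and 41.3 against 41.2 and 39.8 FPKM (0.16 ± 0.26), lowest in control replicate 1.

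The polymerase and primase genes lay at moderate levels, from Pole2 at a mean of 24.4 FPKM to Pold2 at 75.2 FPKM. Of these, 5 of 8 were lower in the mean (62.5%, beside 56.4% of all tested genes). Pold2, the second subunit of polymerase delta, measured 90.6 and 70.8 FPKM in the controls and 64.6 and 74.8 FPKM with DKK2 (-0.20 ± 0.27), and without control replicate 1 its log2 fold change was -0.025. Its catalytic subunit Pold1 had the largest difference of the 8 and was higher in the mean, at 33.9 and 27.5 against 32.0 and 44.2 FPKM (0.29 ± 0.29), with DKK2 replicate 1 between the controls, and without DKK2 replicate 2 it was at 0.064. The small primase subunit Prim1 measured 68.5 and 65.9 against 86.7 and 53.5 FPKM, and the large subunit Prim2 measured 41.3 and 39.3 against 38.8 and 35.7 FPKM (-0.11 ± 0.23). Prim2 was the one gene of the 8 without overlap, and its libraries spanned only a narrow range. Polymerase alpha (Pola1 and Pola2) and polymerase epsilon (Pole and Pole2) had log2 fold changes between -0.22 and 0.13, and all 4 overlapped.

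For the clamp and its loader, the 2 DKK2 libraries lay on opposite sides of the controls in 3 of 6 genes. Pcna measured 194 and 147 against 208 and 125 FPKM (-0.07 ± 0.36). The row of Pcna-ps2 measured 233.9 and 216.6 FPKM in the controls and 299.0 and 177.8 FPKM with DKK2, so fragments may have been split between the near-identical copies and both levels are uncertain. The loader subunit Rfc4 measured 82.9 and 105 against 170.1 and 67.7 FPKM (0.20 ± 0.49), and Rfc3 measured 77.4 and 74.8 against 111 and 63.6 FPKM. In these, as in Pcna, DKK2 replicate 1 was the highest and DKK2 replicate 2 the lowest library. Rfc5 measured 58.5 and 56.4 FPKM in the controls and 44.7 and 48.0 FPKM with DKK2 (-0.30 ± 0.23), and the large subunit Rfc1 measured 36.7 and 38.8 against 31.1 and 32.5 FPKM (-0.24 ± 0.23), both without overlap and with little spread inside a group. Rfc2 measured 92.3 and 70.9 against 72.8 and 92.0 FPKM.

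Genes of single-strand binding and of Okazaki fragment maturation had small mean differences, from -0.24 to 0.02 (log2). Lig1, the ligase that seals the fragments, measured 227 and 208 FPKM in the controls and 212 and 229.7 FPKM with DKK2 (0.02 ± 0.25, 95% interval -0.63 to 0.68). The flap nuclease gene Fen1 measured 106 and 89.8 against 84.2 and 80.7 FPKM (-0.24 ± 0.25), without overlap. Rpa1 and Rpa2, which coat single-stranded DNA, measured 134 and 118 against 126 and 111 FPKM and 80.6 and 62.3 against 64.9 and 60.6 FPKM. The order Lig1, Rpa1, Fen1, Rpa2 was the same in all 4 libraries.

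Genes that supply deoxynucleotides were all lower in the mean, by small amounts, where 56.4% of all tested genes were lower. Rrm2, the subunit of ribonucleotide reductase that is made in S phase, measured 201 and 215 FPKM in the controls and 193 and 165 FPKM with DKK2 (-0.22 ± 0.26), without overlap. Its partner Rrm1 measured 168 and 181 against 177 and 144 FPKM, and the thymidine kinase gene Tk1 measured 75.7 and 55.3 against 53.4 and 63.2 FPKM, both overlapping. The ratio of Rrm2 to Rrm1 stayed between 1.09 and 1.19 over the 4 libraries.

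In the deposited values, the genes that restore chromatin and DNA methylation behind the fork were low in DKK2 replicate 1 alone in 3 of 4 cases. Uhrf1, which reads hemimethylated DNA, measured 113 and 97.7 FPKM in the controls, and the DKK2 libraries were far apart at 36.5 and 103 FPKM (-0.76 ± 0.53, 95% interval -2.13 to 0.61). The maintenance methyltransferase gene Dnmt1 went the same way, at 91.1 and 80.0 against 47.7 and 88.0 FPKM (-0.39 ± 0.37), as did Chaf1a, the large subunit of the histone chaperone CAF-1, at 33.0 and 22.7 against 13.97 and 26.4 FPKM (-0.49 ± 0.40). DKK2 replicate 2 lay between the controls in all 3. After the GC and length correction described below, both DKK2 libraries lay below both controls in all 3, as in 20.9% of the genes in that fit. The log2 fold change was then -0.68 for Uhrf1, -0.21 for Dnmt1 and -0.29 for Chaf1a. DKK2 replicate 1 was also the library with the highest sum of neutrophil and basophil markers (3690.0 FPKM), most of it from S100a8 (1738 FPKM) and S100a9 (1582 FPKM). Of the 13 such markers tested, 8 were highest in DKK2 replicate 1. The other 5 were highest in DKK2 replicate 2, among them Mcpt8, Cpa3, Fcer1a and Ms4a2. The part of such cells in these values was not tested. Without DKK2 replicate 1 the log2 fold change of Uhrf1 was -0.02. Chaf1b, the other CAF-1 subunit in the set, measured 35.8 and 31.7 against 34.7 and 31.5 FPKM. After the correction it was at -0.05 and its groups still overlapped.

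The spread between libraries moved with the base composition of the transcripts. GC content and length were taken from the longest protein-coding transcript of each gene in the GENCODE M21 annotation, and the 44 transcripts ranged from 41.5% GC (Pola1) to 60.7% GC (Pold1) and from 1087 to 7163 bases. DKK2 replicate 1 was higher than DKK2 replicate 2 in 21 of the 22 genes at or below the median GC and in 7 of the 22 genes above it. Across the 44 genes the gap between the DKK2 replicates (replicate 2 minus replicate 1) had a Spearman rho of 0.762 with GC, and across 10777 tested genes one of 0.511. The gap between the control replicates went the other way, with a rho of -0.571 across the 44 genes and -0.444 across the tested genes. These are descriptions across genes, which share their libraries and are not independent. The difference between the groups had a weaker relation with GC, with a rho of -0.239 across the 44 genes. With length its rho was -0.317, where that of the DKK2 replicate gap was 0.485 and that of the control replicate gap 0.134. The median gap between replicates was 0.23 (log2) in the controls and 0.33 in the DKK2 libraries, beside a median absolute group difference of 0.18, and the DKK2 replicates differed by more than the group means in 29 of the 44 genes. In 9 genes both replicate gaps were smaller than the difference between the groups.

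**Figure D3:**
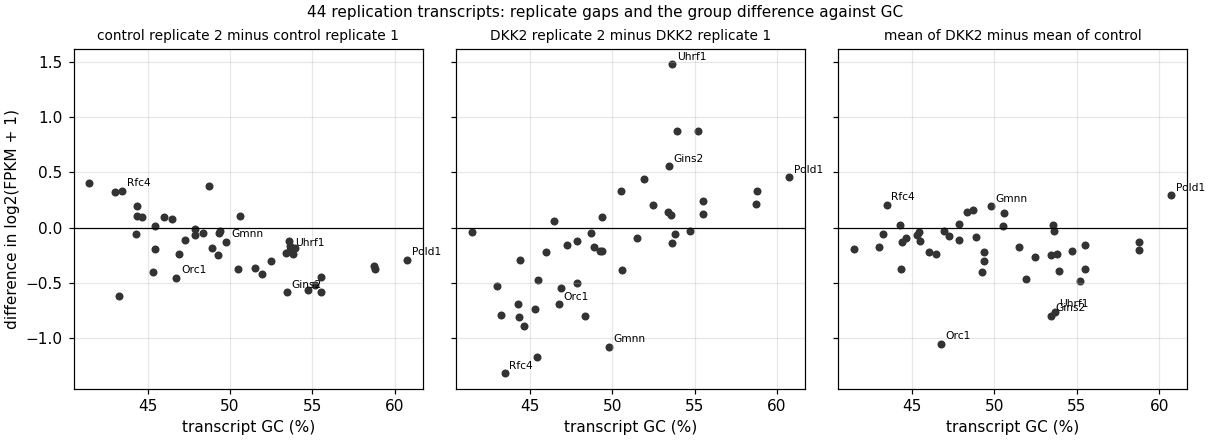
Difference in log2(FPKM + 1) against transcript GC for the 44 replication genes, between the controls (left), between the DKK2 libraries (middle) and between the group means (right). The middle panel rises from Rfc4 at the lower left to Uhrf1 at the top, the left panel slopes the other way, and the right panel shows a weaker relation with Orc1 lowest.

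A correction chosen after seeing the data removed the part of each library's deviation that splines of GC and length predict. The fit included the 44 genes, so replicate gaps that follow GC or length are made smaller by the correction itself. The median gap was then 0.16 in the controls and 0.22 in the DKK2 libraries. Of the 44 genes 37 were then lower in the mean (84.1%, beside 57.0% of the genes in that fit). Their median log2 fold change was -0.21, beside -0.05 for all genes with a GC value. Both DKK2 libraries lay below both controls in 21 genes (20.9% of the genes in that fit) and above both in 2 (14.5%), Pold1 and Lig1. Cdc6 and Mcm2 were no longer among the genes below. Orc2, Orc3, Pold2, Pole2, Rpa2, Rrm1, Tk1, Chaf1a, Uhrf1 and Dnmt1 joined them. Still 0 of 44 passed limma, and the smallest adjusted p was 0.893. Orc1 was at -1.15 ± 0.30 after correction, Gins2 at -0.70 ± 0.24, Cdc45 at -0.50 ± 0.20 and Pold1 at 0.48 ± 0.19. Gmnn and Rfc4, which stood high in DKK2 replicate 1, were at 0.07 ± 0.35 and 0.00 ± 0.32.

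Other genes of the cell cycle were read from lists beside these. Of 37 further replication factors that could be tested (of 38 listed), 22 were lower and 15 higher in the mean, with a median log2 fold change of -0.08. In this list 59.5% were lower and 6 (16.2%) lay below both controls, close to the 56.4% and 14.8% of all tested genes. Above both controls lay 1 (2.7%, beside 11.8%). In that list the lowest was Pclaf, a Pcna-binding protein listed under its older name 2810417H13Rik, at 151.8 and 179.5 FPKM in the controls and 178.0 and 89.7 FPKM with DKK2 (-0.38 ± 0.40). The highest was Rnaseh2a, a subunit of an RNase that removes RNA from DNA, at 80.1 and 64.8 against 90.2 and 88.0 FPKM (0.30 ± 0.25). Of 29 G1/S regulators tested (of 31), 26 were lower in the mean (89.7%, beside 56.4% of all tested genes), with a median of -0.25. Of the 29, 11 lay below both controls (37.9%, beside 14.8%) and 1 above (3.45%, beside 11.8%). Cdk6, a kinase that drives exit from G1, measured 21.9 and 21.9 FPKM in the controls and 6.79 and 13.4 FPKM with DKK2 (-1.11 ± 0.37). Rbl2, a pocket protein that holds E2F targets down, measured 62.6 and 66.4 against 68.3 and 75.1 FPKM (0.15 ± 0.24). Of 38 mitosis genes 18 were lower (47.4%) and 20 higher, with a median of 0.03. Below both controls lay 3 (7.89%) and above both 4 (10.5%), beside 14.8% and 11.8% of all tested genes. The mitosis genes ran from Foxm1 at -0.43 ± 0.39 to Cenpf at 0.51 ± 0.31. Of 11 further deoxynucleotide enzymes 6 were lower (54.5%) and 5 higher, with 2 below both controls (18.2%) and 2 above (18.2%). Shmt1, which makes one-carbon units, measured 101.5 and 89.6 against 58.2 and 55.4 FPKM (-0.74 ± 0.24), and Samhd1, a dNTP hydrolase that myeloid cells also express, measured 82.6 and 204.2 against 256.9 and 285.0 FPKM (1.05 ± 0.48). No gene of these 4 lists passed limma (adjusted p = 1.0 for each), and whether the lists differ from one another was not tested.

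**Figure D4:**
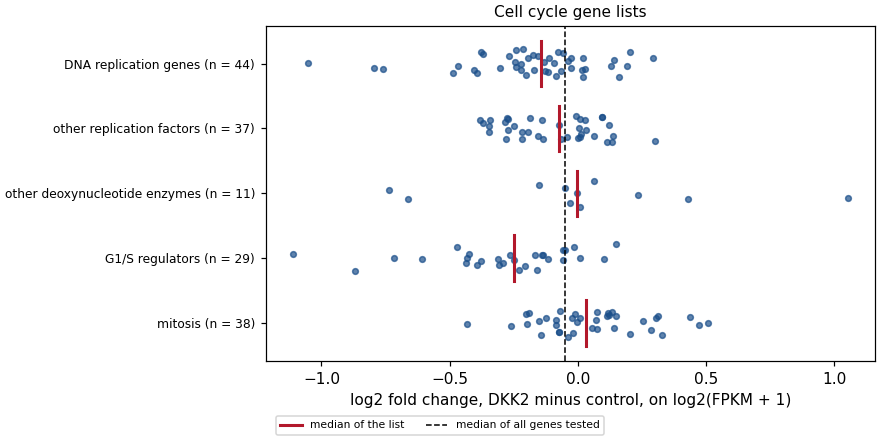
Log2 fold change (DKK2 minus control) of each tested gene in 5 cell cycle lists, with the median of each list as a bar and the median of all tested genes, -0.05, as a dashed line. The medians are -0.14 for the 44 replication genes, -0.25 for G1/S regulators and 0.03 for mitosis genes.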

How the data were processed

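RNA was sequenced from 4 libraries, 2 control and 2 DKK2, grouped by their labels. The deposited table gives FPKM values per gene for each library, per the file headers. The submitters' processing notes list CASAVA, TopHat2 2.1.0, edgeR, Cuffdiff 2.1.0 and build mm9 without saying what each did. No counts were used, so the depth is an estimate from steps between low values. The test was limma 3.58.1 (R 4.3.3, eBayes with a trend, two-sided) on log2(FPKM + 1) for the 12275 genes whose mean reached 1 FPKM, with Benjamini-Hochberg adjustment over all of them at 0.05. A fold change on this scale understates that of low genes. The fit was tested on simulated data with independent noise of equal spread for every gene and no shift with GC. The planted changes were larger than most seen here, so that check does not cover the library differences described above. Members and lists were chosen with earlier results of these data known. Values per library were given for the highest and the most different gene of each role, for genes without overlap between groups and, more briefly, for other genes of the 44. From the other lists the lowest and highest log2 fold change and Mki67 were named. Alternatives covered the pseudocount, the filter, the scaling, the eBayes trend, a replicate block, each library left out and a GC and length correction. Promoters came from RefSeq (GRCm38.p6), and GC and length from GENCODE M21, matched by symbol to 87.8% of the tested genes and all 44 members.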

Additional observations from a re-analysis of the deposited data

How the results depend on the processing

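The 4 genes called among all tested genes became 0 with no filter on low values (949 at an unadjusted limma p under 0.05), 0 after GC and length correction (412) and 0 without any one library (150 to 855, limma with the lone library assumed to vary like the others). With the replicate number as a block there were 8, none of them a replication gene. The labels do not say whether replicate numbers pair the libraries. Deviations of same-numbered libraries had a correlation of 0.0117 across genes, which cannot settle this with 2 libraries a group. The count of replication genes whose groups did not overlap was 13, all below, where 14.8% of the tested genes lay below both controls and 11.8% above. After GC and length correction, a setting chosen after seeing the data, it was 23, with 21 below (20.9%) and 2 above (14.5%). With a library left out it was 22 to 35, beside 23.8% to 41.8% of the tested genes below and 22.7% to 32.7% above. Orc5 (0.0090) and Pcna (0.0025) changed sign when libraries were scaled to the same median. With a library left out, Mcm6 ranged from -0.16 to 0.0034, Orc5 from -0.45 to 0.33, Pcna from -0.43 to 0.30 and Lig1 from -0.039 to 0.082. The other 16 of the 20 members named by rule kept their direction in all 14 alternatives, but not their size. With a library left out, Mcm2 ranged from -0.67 to -0.085, Mcm3 from -0.42 to -0.12, Mcm5 from -0.69 to -0.25, Mcm7 from -0.36 to -0.13, Pold2 from -0.38 to -0.025, Pold1 from 0.064 to 0.52, Gins2 from -1.09 to -0.50, Uhrf1 from -1.50 to -0.023, Orc1 from -1.40 to -0.71, Cdc45 from -0.53 to -0.28, Cdc6 from -0.33 to -0.12, Fen1 from -0.36 to -0.12, Rrm2 from -0.33 to -0.11, Prim2 from -0.17 to -0.053, Rfc5 from -0.35 to -0.26 and Rfc1 from -0.28 to -0.20. Where fewer libraries entered, the alternative itself leaves less to estimate the spread from, and for the other changes the cause was not tested. With 2 libraries a group, the median standard error of 0.28 (log2) limits what could be told apart.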
